A study of Mus musculus with 6 samples.

Results

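The genes described here are components of the Wnt pathway and its feedback targets, in mouse kidneys after 14 days of unilateral ureteral obstruction (UUO), with and without tubular c-Abl. Members were taken by name: the numbered Wnt, Fzd, Sfrp, Dkk, Rspo, Axin, Nkd, Dvl and Kremen genes and a list of named receptors, inhibitors, kinases, transcription factors and targets. This gave 75 of the 18849 genes of the table. UUO ties off a ureter, so that the tubules of that kidney are damaged and scar matrix accumulates. All 6 libraries came from whole obstructed kidneys of male C57BL/6 mice, 8 weeks old in the design text. The 3 control libraries are called floxed here, because the design text gives them a c-Abl gene (Abl1) flanked by loxP sites, although their genotype label reads WT. The 3 knockout libraries came from such mice bred to carry Ksp-Cre, a Cre recombinase under the promoter of the kidney cadherin gene Cdh16. That promoter is active in tubule epithelium, so fibroblasts, vessels and leukocytes of these kidneys keep Abl1, and the genotype label reads c-Abl knockdown. The labels do not say whether the libraries of a group came from different mice, and p-values then cover only the spread among these samples, which may be technical. Unobstructed kidneys were not analysed here.

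Wnt proteins are lipid-modified signals that bind Frizzled receptors together with a co-receptor such as LRP5 or LRP6, ROR or RYK. In the canonical branch this stops a complex of AXIN, APC, GSK3 and casein kinase from marking beta-catenin for breakdown, and beta-catenin then switches on genes with TCF/LEF factors. Several of those genes, among them Axin2, Nkd1, Notum, Sp5 and Znrf3, encode proteins that damp the signal, so their transcripts are widely used as a readout of the pathway. In the kidney, Wnt signals shape the nephron during development and become active again in tubules and stroma after injury. The title of the series names Wnt and beta-catenin activation by c-Abl.

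Values are FPKM, fragments scaled to gene length and library size, so levels can be compared between genes. Log2 fold changes are knockout minus floxed after adding 1 to each FPKM, a scale on which low genes appear to differ less than they do. They come from limma, fitted over the 13390 genes with at least 1 FPKM in at least 3 libraries, with adjustment over all of them. Low values were spaced as whole fragments would be at an approximate depth of 16150000 to 18050000 fragments per library, where 1 FPKM in a 2-kb transcript stands for 32.3 to 36.1 fragments. Abl1 itself (which cells outside the tubule keep) read 18.16, 15.93 and 17.33 FPKM in the floxed and 10.46, 14.45 and 12.91 FPKM in the knockout libraries (exact two-sided permutation p = 0.1, the smallest that 3 against 3 libraries allow). Knockout replicate 3 stood apart: its mean correlation across genes was 0.984 with the floxed libraries and 0.974 with the other knockout libraries. Values without it are therefore given beside the main counts. That library was singled out because it lies toward the floxed libraries, and that choice by itself can widen the differences left without it.

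Of the 75 members, 53 were tested. No member passed the limma threshold of 0.05 in either direction, against 0.0373% of all tested genes lower and 0.0299% higher. The lowest adjusted p, 0.0547, belonged to Nkd1 and Nkd2. At an unadjusted limma p under 0.05, 17 members (32.1%) were lower and 3 (5.66%) higher in the knockout kidneys, against 16.3% and 8.38% of all tested genes. For 18 members (34.0%) every knockout library lay below every floxed library and for 4 (7.55%) above, against 21.7% and 10.0% of all tested genes. With median-ratio scaling of the libraries 13 members were lower and 4 higher at that p, against 12.0% and 12.7% of all tested genes. The median log2 fold change of the tested members was -0.25, beside -0.12 for all tested genes. Without knockout replicate 3, 13 members (24.5%) passed the adjusted threshold as lower and 2 (3.77%) as higher, against 15.4% and 9.02% of all tested genes. Of the tested members, 10 had 1 FPKM or more in every floxed library and less in at least 1 knockout library, so the filter itself favoured members that were higher in floxed kidneys, and these shares describe the list only.

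**Figure D1:**
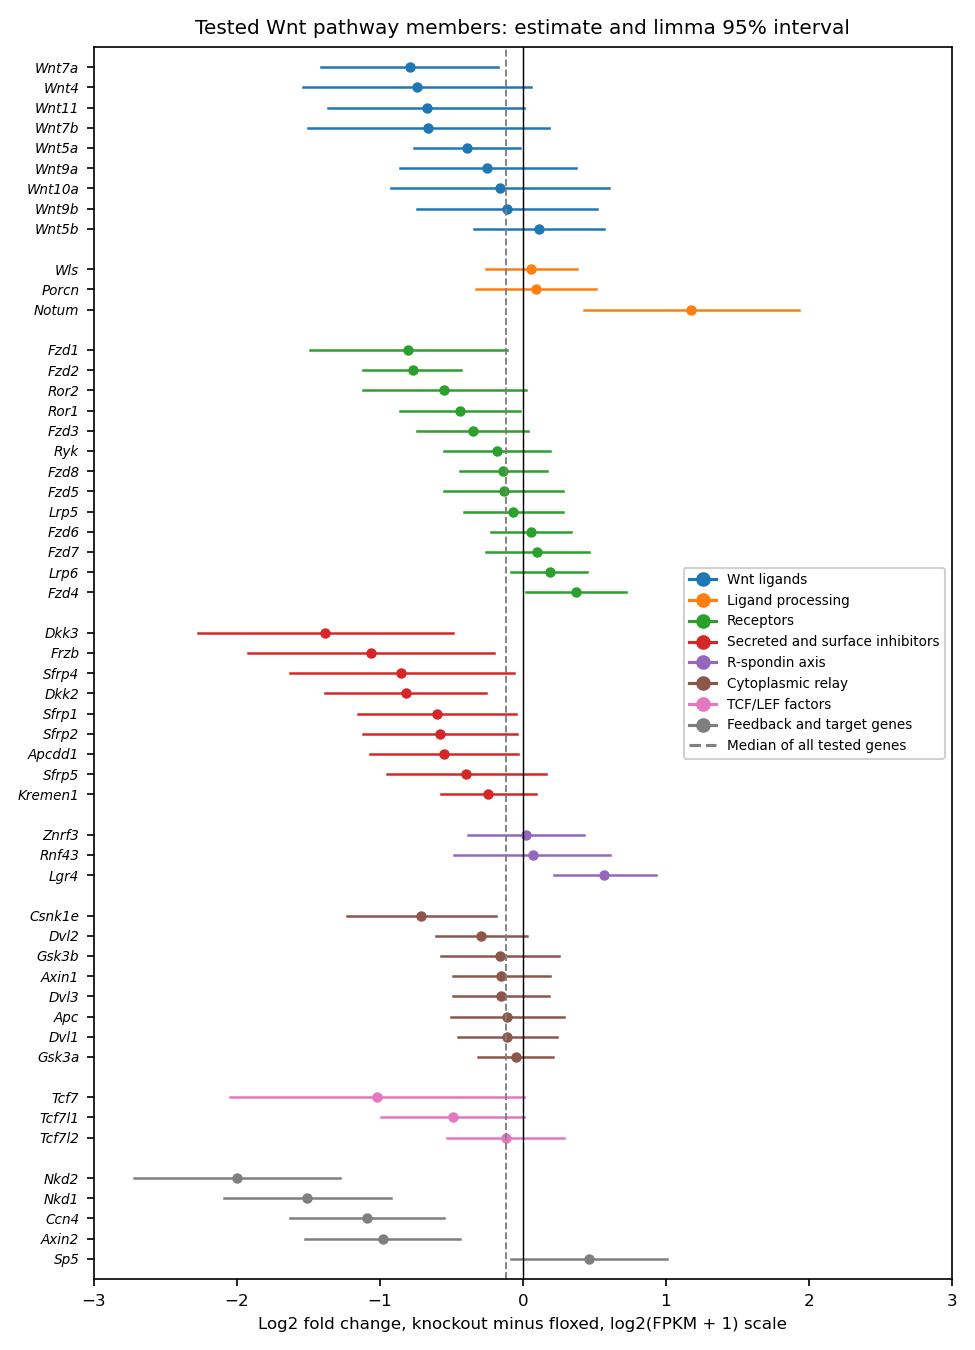
Log2 fold change (knockout minus floxed, log2(FPKM + 1) scale) of the 53 tested members by role, with limma 95% intervals over 3 and 3 libraries; the dashed line marks the median of all tested genes at -0.12. Nkd2 at -2.0 and Nkd1 at -1.51 lie farthest to the left and Notum at 1.18 farthest to the right.

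The feedback and target genes held the widest differences, and they did not all point one way. Nkd1 and Nkd2 encode the Naked proteins, which bind Dishevelled and restrain Wnt signalling. Nkd2 read 14.86, 16.61 and 11.81 FPKM in the floxed and 3.06, 1.44 and 4.61 FPKM in the knockout libraries. Its mean was 4.75-fold lower in knockout kidneys (limma log2 fold change -2.0, SE 0.305, adjusted p = 0.0547). Nkd1 read 8.08, 8.32 and 10.44 FPKM against 1.72, 2.09 and 4.01 FPKM, a mean 3.43-fold lower (limma log2 fold change -1.51, SE 0.247, adjusted p = 0.0547). In both genes the highest knockout library, replicate 3, stayed well under the lowest floxed library. Axin2, the inducible scaffold of the beta-catenin destruction complex, read 4.25, 3.85 and 2.90 FPKM against 0.76, 1.84 and 1.59 FPKM (limma log2 fold change -0.98, SE 0.227, adjusted p = 0.0807). Ccn4, which encodes the matricellular protein WISP1 and is induced by Wnt1 in cultured cells, read 4.28, 4.88 and 4.44 FPKM against 1.70, 0.89 and 2.41 FPKM (limma log2 fold change -1.09, SE 0.228, adjusted p = 0.0687). All 4 genes had no overlap between the groups, and without knockout replicate 3 all 4 passed the threshold (limma adjusted p = 0.00349 for Nkd1, 0.00456 for Nkd2, 0.0331 for Axin2 and 0.00896 for Ccn4). Over all tested genes, 21.7% were lower without overlap and 15.4% passed as lower without that library.

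Sp5, a zinc-finger transcription factor and a direct beta-catenin target in embryos, stood on the other side of 0. It read 2.56, 3.59 and 3.37 FPKM in the floxed and 6.55, 4.78 and 3.29 FPKM in the knockout libraries, with knockout replicate 3 inside the floxed range (limma log2 fold change 0.46, 95% interval -0.08 to 1.01, adjusted p = 0.257). Notum, a secreted enzyme that strips the lipid from Wnt proteins and is itself a pathway target, held the highest fold change of the members. It read 2.45, 2.44 and 2.47 FPKM in the floxed and 10.81, 7.55 and 3.74 FPKM in the knockout libraries (limma log2 fold change 1.18, SE 0.315, adjusted p = 0.0994, and 0.00478 without knockout replicate 3). The floxed libraries were nearly identical for Notum, while the knockout libraries spread widely, replicate 3 lying nearest to the floxed level. Both of the ubiquitin ligases that clear Frizzled receptors, which are feedback genes as well, had similar means: Znrf3 had means of 3.54 ± 0.708 and 3.60 ± 0.523 FPKM (SD, n = 3) and Rnf43 of 2.31 ± 0.970 and 2.39 ± 0.391 FPKM. The 95% intervals of their log2 fold changes were -0.38 to 0.43 and -0.48 to 0.61. Feedback genes of the pathway thus had estimates below, above and near 0 in the same knockout kidneys.

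**Figure D2:**
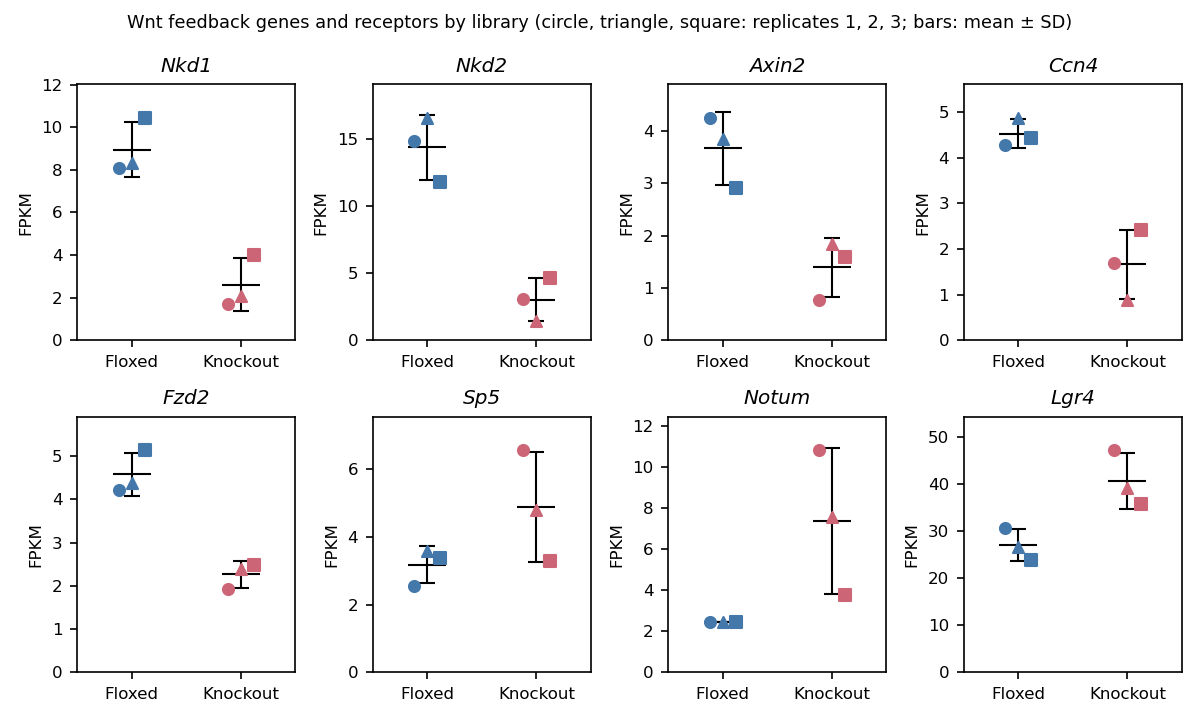
FPKM of 8 members in each library, with the mean and SD of 3 floxed and 3 knockout libraries. For Nkd1, Nkd2, Axin2, Ccn4 and Fzd2 all knockout points lie under all floxed points, for Notum and Lgr4 above them, and for Sp5 the groups overlap.

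Bulk values cannot tell fewer cells of a type from less RNA per cell, and the marker lists of several cell types differed along with these genes. Of 16 fibroblast markers 15 were tested and all 15 were below 0. At an unadjusted limma p under 0.05, 12 of the 15 (80.0%) were lower, against 16.3% of all tested genes. Their summed level was 646.9 to 792.5 FPKM in the floxed and 129.4 to 410.2 FPKM in the knockout libraries. All 10 macrophage markers were below 0, with sums of 1781 to 2596 and 705.7 to 1350 FPKM. All 9 smooth muscle and pericyte markers and all 10 endothelial markers were below 0 as well. The share of all tested genes on either side of 0 was not computed. At an unadjusted limma p under 0.05, 5 of the 9 (55.6%) and 2 of the 10 (20.0%) were lower, against 16.3% of all tested genes. Only 1 endothelial marker (10.0%) was lower without overlap, against 21.7% of all tested genes. So were 7 of 8 injured tubule markers, but 0 of the 8 were lower at that p and all 8 overlapped between the groups. Of 7 tested T and B cell markers 5 were below 0, and 1 (14.3%) was lower at that p. All 9 of that list summed to 177.8, 30.23 and 27.89 FPKM in the floxed and 33.03, 40.83 and 43.72 FPKM in the knockout libraries. Only floxed replicate 1 lay above the knockout sums. All 12 proximal tubule markers were above 0. Of these, 8 (66.7%) were higher at an unadjusted limma p under 0.05, against 8.38% of all tested genes, and for 6 the groups overlapped. Their sums overlapped (4959 to 13780 and 4407 to 41300 FPKM), but the marker Kap made up most of each sum. Kap read 4383.05, 12948.3 and 10811.09 FPKM against 37353.43, 6599.76 and 3404.8 FPKM (limma log2 fold change 0.15, adjusted p = 0.925). Sums without Kap were not computed. No fibroblast or macrophage marker was at or below 0.05 FPKM in every library. The part of these shifts in the values of the Wnt genes was not tested. The feedback and target group holds Nkd1, Nkd2, Axin2, Ccn4 and Sp5. Notum, Znrf3 and Rnf43, also feedback genes or targets, stand in other groups, with log2 fold changes of 1.18, 0.02 and 0.07. In knockout replicates 1, 2 and 3 the median log2 ratio to the floxed mean was -1.40, -1.55 and -0.84 for the feedback and target group. For the fibroblast markers it was -1.69, -1.85 and -0.60. The order was not shared by every list: the podocyte markers had medians of -0.74, -0.38 and -0.83. Of these 6 markers 5 (83.3%) were lower at an unadjusted limma p under 0.05, against 16.3% of all tested genes.

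**Figure D3:**
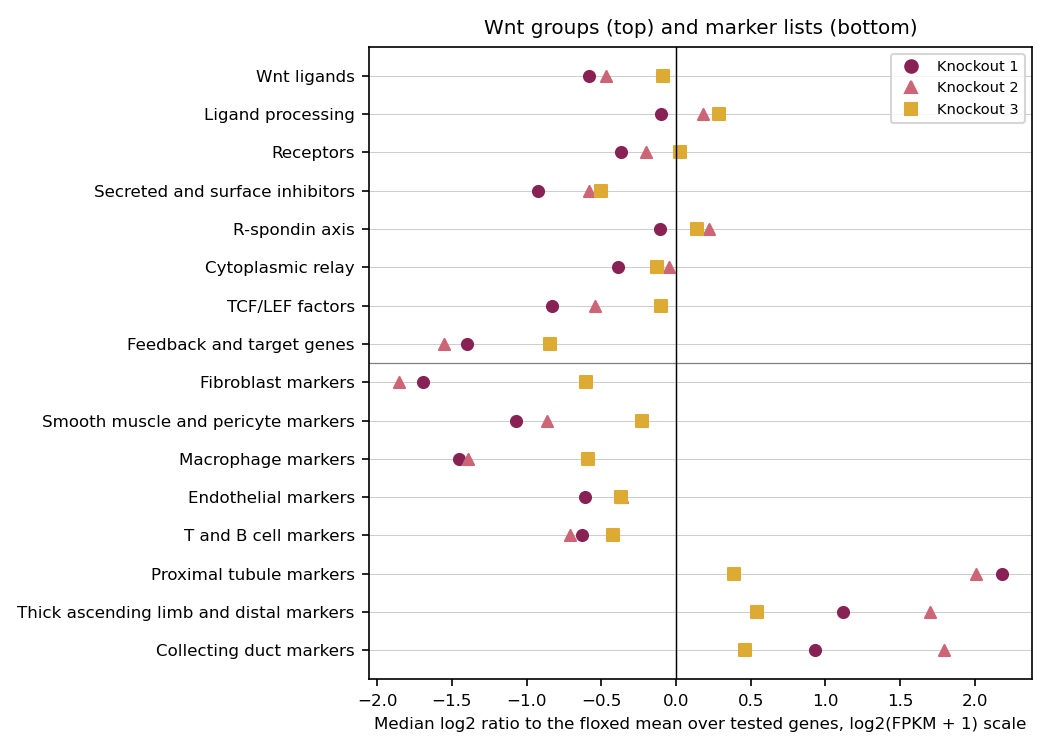
Median log2 ratio to the floxed mean, over the tested genes of each list, in each knockout library (circle, triangle and square for replicates 1, 2 and 3). Replicate 3 lies nearest to 0 in each marker list plotted except the endothelial one, where it stands at -0.37 beside -0.36 in replicate 2. In the feedback and target genes (Nkd1, Nkd2, Axin2, Ccn4 and Sp5, without Notum, Znrf3 and Rnf43) it stands at -0.84.

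Promoter sequence of some feedback genes was set beside these values. The genes shown were picked by their values, because Nkd1, Nkd2 and Axin2 were lower and Sp5 was not. RefSeq promoters (GRCm38.p6, from 250 bases before to 50 after a gene start) were found for 51 of the 75 members. Each was searched on both strands for the TCF/LEF letters CTTTGAA or CTTTGAT. The same search covered CTTTGTA. It also covered CTTTGTT. At least 1 match stood in a promoter of 9 of those 51 members (17.6%), against 18.9% of all genes with a promoter and 16.9% of all single promoters of that length. The 300 bases of Nkd1, Nkd2 and Axin2 held no match. Those of Sp5 held 2, which begin 222 and 104 bases before the start. For the 3 genes without a match the 150 bases before the start are shown, for Nkd1 at chr8:88527483-88527632 (plus strand), Nkd2 at chr13:73847632-73847781 (minus strand) and Axin2 at chr11:108920199-108920348 (plus strand). The Sp5 stretch lies at chr2:70474676-70474850 (plus strand) and runs across both matches. Sequences read 5′ to 3′ along the gene, with matches in capitals.
Nkd1: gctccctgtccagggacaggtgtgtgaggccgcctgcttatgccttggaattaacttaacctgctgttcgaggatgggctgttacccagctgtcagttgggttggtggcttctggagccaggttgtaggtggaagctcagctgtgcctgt
Nkd2: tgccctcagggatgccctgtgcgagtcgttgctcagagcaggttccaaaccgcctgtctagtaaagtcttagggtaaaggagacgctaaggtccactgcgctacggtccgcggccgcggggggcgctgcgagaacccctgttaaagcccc
Axin2: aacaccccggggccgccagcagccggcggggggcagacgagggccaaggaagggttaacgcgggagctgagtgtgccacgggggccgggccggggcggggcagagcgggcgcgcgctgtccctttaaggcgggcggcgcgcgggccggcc
Sp5: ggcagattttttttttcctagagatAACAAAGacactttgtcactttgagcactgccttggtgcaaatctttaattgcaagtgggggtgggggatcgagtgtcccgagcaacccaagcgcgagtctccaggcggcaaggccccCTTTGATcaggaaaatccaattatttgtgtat
The letters differ in base composition too: G and C made up 58.3%, 63.0% and 70.0% of the 300 bases of Nkd1, Nkd2 and Axin2 and 45.0% of those of Sp5, beside a median of 52.7% over all promoters. Other members held no match either, among them Rnf43, which was near 0, and Lgr4 and Fzd4, which were higher. For Ccn4, Notum and Znrf3 no promoter was found. A link between matches and values was not tested. A match is a description of letters and no match says only that they are not in this window.

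Among the 19 Wnt ligand genes the obstructed floxed kidney expressed mainly 4. Wnt4 (9.64 ± 1.27 FPKM) and Wnt7b (8.96 ± 2.11 FPKM), both known from tubule and collecting duct development, lay within each other's spread. Wnt5a, the main ligand of the ROR receptors, followed at 6.09 ± 1.08 FPKM and Wnt10a at 2.65 to 4.64 FPKM. These 4 ligands made up 67.6% to 72.8% of the summed ligand FPKM in every library of both groups. The sum itself was 37.43, 42.00 and 42.81 FPKM in the floxed and 17.39, 26.45 and 38.82 FPKM in the knockout libraries. Knockout replicates 1 and 2 were thus below the floxed range and replicate 3 inside it.

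In Wnt4, too, knockout replicate 1 was lowest and replicate 3 inside the floxed range. It read 11.10, 9.0 and 8.82 FPKM in the floxed and 2.91, 5.25 and 9.47 FPKM in the knockout libraries (limma log2 fold change -0.74, SE 0.338, adjusted p = 0.228, and 0.0217 without knockout replicate 3). Wnt11, a ligand of the ureteric bud tip that acts largely outside beta-catenin, read 1.49, 1.42 and 1.47 FPKM against 0.12, 0.36 and 1.41 FPKM (limma log2 fold change -0.67, SE 0.289, adjusted p = 0.208, and 0.0126 without that library). Its groups did not overlap, but knockout replicate 3 sat just under the floxed libraries. One of the 2 RefSeq promoters of Wnt11 holds a TCF/LEF match 51 bases before the start, on the reverse strand, at chr7:98835036-98835092 (plus strand), shown because Wnt11 and Sp5 both hold a match while their estimates lie on opposite sides of 0.
Wnt11: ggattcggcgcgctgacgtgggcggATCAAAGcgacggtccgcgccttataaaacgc
Wnt7a read 1.34, 2.97 and 1.94 FPKM against 0.45, 0.60 and 1.28 FPKM, and Wnt5a 5.62, 5.32 and 7.32 FPKM against 3.99, 4.26 and 4.89 FPKM. Both were lower in every knockout library at an unadjusted limma p under 0.05 (adjusted p = 0.140 and 0.189). Wnt5b had the only estimate above 0 among the 9 tested ligands (log2 fold change 0.11, 95% interval of Wnt5b -0.34 to 0.57).

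**Figure D4:**
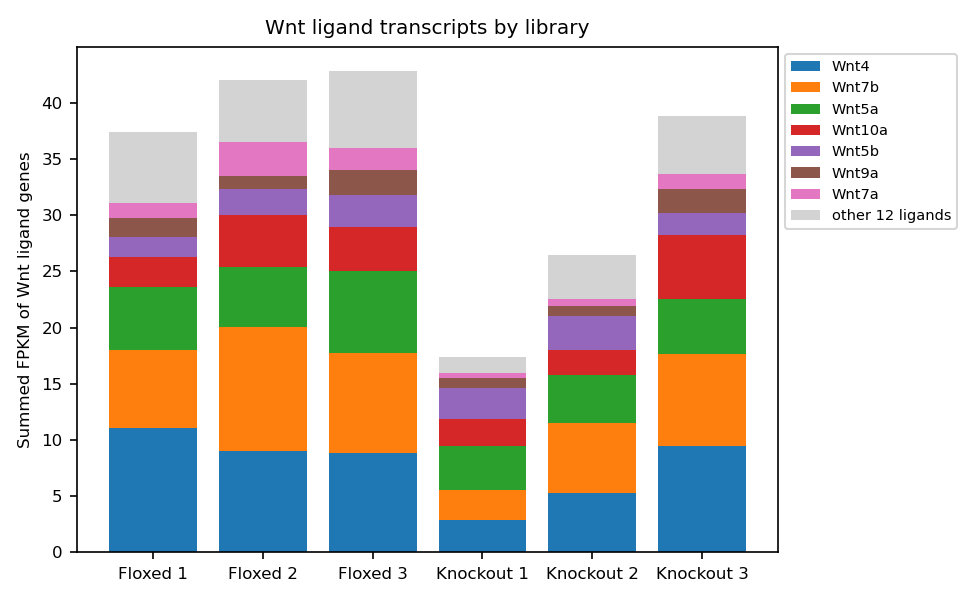
Summed FPKM of the 19 Wnt ligand genes in each library, split into the 7 highest and the other 12. The floxed sums reach 37.43 to 42.81, knockout replicate 1 reaches 17.39 and knockout replicate 3 reaches 38.82.

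Genes of urothelium, the lining of the renal pelvis, also differed between libraries. The uroplakins Upk1b, Upk2 and Upk3a and the basal keratin Krt5 stand in a list of 12 genes of tissue that dissection could carry along, of which 5 were tested and 4 lay below 0. The list summed to 36.13, 22.34 and 78.96 FPKM in the floxed and 6.00, 22.72 and 52.47 FPKM in the knockout libraries. Knockout replicate 1 had both the lowest list sum and the lowest ligand sum. The other libraries did not share 1 order: floxed and knockout replicates 2 had similar list sums beside ligand sums of 42.00 and 26.45 FPKM. Of the other genes in that list, the adrenal gene Star read 1.25 to 1.92 FPKM, with overlap between the groups. The adipose gene Cidec read 0.07 to 0.43 FPKM and the muscle gene Acta1 0.08 to 0.55 FPKM, while Plin1, Cyp11b2 and Myh1 were at most 0.03 FPKM in every library. The part of these tissues in the ligand values was not tested. The 10 untested ligands were low. Of these, Wnt2, a ligand of stromal cells in several organs, read 0.91, 0.74 and 1.92 FPKM against 0.03, 0.06 and 0.51 FPKM, and Wnt2b read 0.60 to 0.71 against 0.29 to 0.56 FPKM. Wnt16 (0.09 to 0.99 FPKM), Wnt10b (0.19 to 1.11 FPKM) and Wnt6 (0.19 to 0.35 FPKM) overlapped between the groups. Wnt1, Wnt3, Wnt3a, Wnt8a and Wnt8b stayed between 0.00 and 0.11 FPKM.

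Genes that make and release the ligands were near their floxed level. Wls, the carrier that takes Wnt proteins to the cell surface, was the most abundant member of its group with means of 66.4 ± 7.37 FPKM (floxed) and 69.4 ± 6.76 FPKM (knockout) (limma log2 fold change 0.06, SE 0.135, adjusted p = 0.781). Porcn, the acyltransferase that adds the lipid, had means of 4.14 ± 0.612 and 4.50 ± 0.926 FPKM (limma adjusted p = 0.767). The 95% intervals of their log2 fold changes were -0.26 to 0.38 for Wls and -0.33 to 0.51 for Porcn.

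Frizzled receptors split by member. Fzd2, a receptor for Wnt5a in mesenchymal cells, had the clearest difference. It read 4.21, 4.39 and 5.14 FPKM in the floxed and 1.92, 2.39 and 2.49 FPKM in the knockout libraries, a mean 2.02-fold lower (limma log2 fold change -0.77, SE 0.147, adjusted p = 0.0633). The knockout libraries lay close together for Fzd2, with replicate 3 hardly above replicate 2. Fzd1, the most abundant Frizzled of the floxed kidneys, read 16.32, 27.13 and 30.10 FPKM against 15.92, 9.04 and 15.97 FPKM (limma log2 fold change -0.80, SE 0.292, adjusted p = 0.162). Floxed replicate 1 was only just above the knockout libraries there. Fzd4, the receptor of norrin in vessels, went the other way, at 8.22, 6.96 and 7.76 FPKM against 8.56, 10.39 and 11.77 FPKM (limma log2 fold change 0.37, SE 0.148, adjusted p = 0.187). Fzd3, a scarce Frizzled, read 1.19 to 1.61 against 0.71 to 1.09 FPKM without overlap (limma adjusted p = 0.233). Fzd5, Fzd6, Fzd7 and Fzd8 overlapped between the groups, with log2 fold changes of -0.13, 0.06, 0.10 and -0.14. Fzd9 and Fzd10 stayed at or under 0.15 FPKM in every library. In all, 3 of the 13 tested receptors were lower (23.1%) and 1 higher (7.69%) at an unadjusted limma p under 0.05, shares near the 16.3% and 8.38% of all tested genes.

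The LRP co-receptors showed small differences and the ROR receptors larger ones. Lrp6, which carries the canonical signal beside Frizzled, read 13.41, 15.06 and 15.57 FPKM against 16.90, 16.15 and 17.50 FPKM, so that all knockout libraries were above all floxed ones (limma log2 fold change 0.19, SE 0.112, adjusted p = 0.325). Its relative Lrp5 had means of 9.58 ± 1.32 and 9.10 ± 1.05 FPKM. Ryk, a kinase-dead Wnt receptor and the most abundant receptor of the list over all libraries, read 23.5 ± 3.25 and 20.6 ± 2.99 FPKM (limma adjusted p = 0.479). The Wnt5a receptors Ror1 and Ror2 had log2 fold changes of -0.44 and -0.55. Ror1 did not overlap between the groups, at 2.65 to 4.03 against 1.78 to 2.40 FPKM.

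The members grouped as secreted and surface inhibitors read lower in the knockout kidneys. Notum and Igfbp4, which can also restrain the signal, stand in other groups, with log2 fold changes of 1.18 and 0.77. In the list of other extracellular modulators, which holds Igfbp4, 6 of 14 tested genes were above 0 and 8 below. Sostdc1 of that list had a log2 fold change of 0.90, with overlap between the groups (limma adjusted p = 0.176). The counts that follow cover the grouped members only. All 9 tested members were below 0, 7 of them (77.8%) at an unadjusted limma p under 0.05, against 16.3% of all tested genes. For 5 of the 9 (55.6%) the knockout libraries lay lower without overlap, against 21.7% of all tested genes, and for 4 the groups overlapped. The median log2 fold change was -0.60 beside -0.12 for all tested genes. Their summed level, the untested members included, was 95.72 to 131.8 FPKM in the floxed and 54.13 to 69.08 FPKM in the knockout libraries. Dkk3, a divergent dickkopf secreted by stressed tubules and stroma, read 23.50, 32.98 and 44.16 FPKM against 7.05, 11.54 and 20.31 FPKM (limma log2 fold change -1.38, SE 0.376, adjusted p = 0.103). Dkk2, which binds LRP6, read 10.21, 6.30 and 10.87 FPKM against 4.20, 3.84 and 6.01 FPKM (limma log2 fold change -0.82, SE 0.236, adjusted p = 0.111). Neither gene overlapped between the groups. Frzb, a decoy that binds Wnt ligands, read 12.68, 18.26 and 18.35 FPKM against 6.99, 4.02 and 12.98 FPKM, with knockout replicate 3 inside the floxed range (limma log2 fold change -1.06, SE 0.362, adjusted p = 0.145).

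Sfrp1, a related decoy with a high level throughout, read 28.24, 28.95 and 36.66 FPKM against 27.39, 20.43 and 14.47 FPKM (limma log2 fold change -0.60, SE 0.232, adjusted p = 0.176). Here the order within the knockout group was unlike that of the other inhibitors, with replicate 3 the lowest. Sfrp2, Sfrp4 and the membrane inhibitor Apcdd1 were scarcer, with floxed means of 2.09, 2.33 and 1.79 FPKM and knockout means of 1.02, 0.753 and 0.930 FPKM. Sfrp5 and the DKK receptor Kremen1 had log2 fold changes of -0.40 and -0.24. Dkk1 (0.09 to 0.28 FPKM), Dkk4 (0.00 to 0.03 FPKM), Wif1 (0.24 to 0.85 FPKM) and Kremen2 (0.14 to 0.53 FPKM) were not tested. Without knockout replicate 3, Dkk2, Dkk3 and Frzb passed the adjusted threshold as lower (limma adjusted p = 0.0317, 0.0126 and 0.0133).

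R-spondins amplify Wnt signalling by binding LGR receptors and removing Znrf3 and Rnf43 from the membrane. Lgr4, the LGR receptor of kidney epithelium, was by far the highest of this group. It read 30.66, 26.60 and 23.88 FPKM in the floxed and 47.27, 39.19 and 35.78 FPKM in the knockout libraries, a mean 1.51-fold higher without overlap (limma log2 fold change 0.57, SE 0.150, adjusted p = 0.0975, and 0.0254 without knockout replicate 3). Markers of tubule segments differed in the same direction: 7 of 7 tested thick ascending limb and distal markers were above 0, with sums of 678.6 to 922.3 and 1158 to 2583 FPKM. All 10 collecting duct markers were above 0 as well, with sums of 105.1 to 175.6 and 200.6 to 722.8 FPKM. The part of these shifts in Lgr4 was not tested. Lgr5 (0.27 to 0.37 against 0.09 to 0.22 FPKM), Lgr6, Rspo1 and Rspo3 were all under 1 FPKM, and Rspo4 was listed at 0 in every library. Rspo2 was not analysed here.

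The cytoplasmic relay differed little between the groups apart from Csnk1e, although all 8 estimates were below 0. Mean levels over all libraries ran from 6.23 FPKM (Dvl2) to 60.4 FPKM (Gsk3a). Gsk3a, which phosphorylates beta-catenin, was the highest at 61.5 ± 2.81 and 59.3 ± 4.18 FPKM (limma log2 fold change -0.05, SE 0.110, adjusted p = 0.779). This sign turned to 0.09 with median-ratio scaling of the libraries. Dvl2 and Dvl3, which relay the signal from Frizzled, had log2 fold changes of -0.29 and -0.15 (limma adjusted p = 0.239 and 0.509). Dvl2 did not overlap between the groups, at 6.38 to 7.48 against 4.79 to 6.09 FPKM, while Dvl3 did. Apc, Axin1, Dvl1 and Gsk3b overlapped between the groups, with log2 fold changes between -0.16 and -0.11. Under that scaling those of Apc and Dvl1 turned to 0.02 and 0.03. Csnk1e, the casein kinase that phosphorylates Dishevelled, stood out from this group at 25.81, 25.58 and 29.28 FPKM against 11.10, 17.91 and 20.59 FPKM (limma log2 fold change -0.71, SE 0.220, adjusted p = 0.125). Beta-catenin itself (Ctnnb1), which is no member of the list, read 168.29, 204.69 and 206.75 FPKM against 156.71, 148.86 and 222.78 FPKM (limma log2 fold change -0.15, SE 0.189, adjusted p = 0.627). The protein is regulated mainly after translation, so its transcript is no measure of pathway activity.

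The TCF/LEF factors bind the target genes together with beta-catenin. Tcf7l2 had means of 6.91 ± 1.65 and 6.18 ± 0.475 FPKM (limma adjusted p = 0.666). Tcf7l1 read 4.49, 5.15 and 5.66 FPKM against 2.42, 3.18 and 4.69 FPKM (limma log2 fold change -0.49, SE 0.210, adjusted p = 0.207). Tcf7 read 17.27, 6.12 and 5.35 FPKM in the floxed and 2.58, 3.11 and 5.68 FPKM in the knockout libraries (limma log2 fold change -1.02, SE 0.436, adjusted p = 0.205). Floxed replicate 1 was far above the other libraries, and without it the log2 fold change of Tcf7 was -0.54 (limma adjusted p = 0.348). Lef1 had the same outlying library, at 2.14 FPKM against 0.36 to 0.89 FPKM in the other 5, and was not tested. TCF7 and LEF1 are also the hallmark factors of naive T cells. The summed T and B cell markers read 177.8 FPKM in floxed replicate 1 and 27.89 to 43.72 FPKM in the other 5 libraries, with Cd3e at 10.57 against 1.76 to 3.84 FPKM. The part of lymphocytes in the Tcf7 and Lef1 values was not tested.

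**Figure D5:**
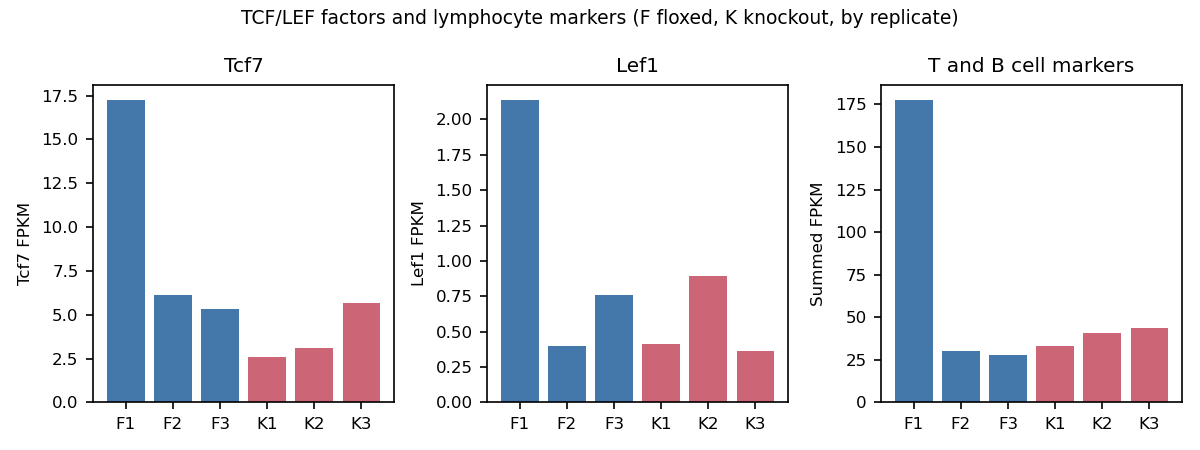
FPKM of Tcf7 and Lef1 and the summed FPKM of 9 T and B cell markers in each library (F floxed, K knockout, numbered by replicate). Floxed replicate 1 is the highest of the 6 libraries in all panels, at 17.27, 2.14 and 177.8.

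Outside the members, 97 other genes of the pathway were taken from a list by role, and 87 were tested. None passed the adjusted threshold. At an unadjusted limma p under 0.05, 17 were lower (19.5%) and 3 higher (3.45%), against 16.3% and 8.38% of all tested genes. In the planar polarity branch, which steers cell orientation without beta-catenin, 2 of 19 (10.5%) were lower at that p. That share is below the 16.3% of all tested genes. The receptor-like Ptk7 read 9.48, 12.44 and 12.40 FPKM against 4.26, 4.10 and 8.20 FPKM (limma adjusted p = 0.0952), and the formin Daam2 5.68, 3.58 and 7.66 FPKM against 1.97, 1.98 and 3.26 FPKM (limma adjusted p = 0.110). Vangl2, a core polarity protein, had means of 2.11 ± 0.302 and 1.37 ± 0.370 FPKM. Among the other extracellular modulators the sulfatase Sulf1, which edits the heparan sulfate that holds Wnt proteins, read 6.44, 12.35 and 9.83 FPKM against 1.27, 1.96 and 4.42 FPKM (limma log2 fold change -1.63, SE 0.357, adjusted p = 0.0740). Igfbp4, a binding protein that can block Frizzled and LRP6, was on the other side at 136.86, 175.74 and 190.56 FPKM against 293.07, 323.70 and 242.91 FPKM (limma log2 fold change 0.77, SE 0.179, adjusted p = 0.0806). Angptl4, a secreted lipase inhibitor, read 63.2 ± 12.2 and 93.5 ± 17.2 FPKM.

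Of 17 tested nuclear partners of beta-catenin, 2 (11.8%) were lower at an unadjusted limma p under 0.05, a share below the 16.3% of all tested genes. They were the co-repressor Tle1 (8.24 ± 1.58 and 4.98 ± 1.37 FPKM) and the chromatin reader Pygo2 (28.3 ± 2.79 and 21.4 ± 3.25 FPKM). Tle5, a short Groucho relative, read 215 ± 3.70 and 271 ± 35.4 FPKM (limma adjusted p = 0.209, and 0.0228 without knockout replicate 3). Sox9, a transcription factor of injured tubules named here after its values were seen, spread widely at 5.91, 13.06 and 14.50 FPKM against 1.35, 5.26 and 10.70 FPKM (limma log2 fold change -1.04, 95% interval -2.44 to 0.36). None of 15 tested genes around the destruction complex reached that p, led by the tankyrase Tnks2 (32.6 ± 1.80 and 26.5 ± 3.91 FPKM) and the casein kinases Csnk1g2 and Csnk1g1 (log2 fold changes -0.22 and -0.26). In a list of genes reported downstream of the pathway in kidney or other tissues, 11 of 22 tested were lower and none higher at an unadjusted limma p under 0.05, against 16.3% and 8.38% of all tested genes. At any p, 17 of the 22 had estimates below 0 and 5 above. Twist1, a mesenchymal transcription factor, read 1.95, 6.18 and 3.91 FPKM against 0.50, 0.66 and 0.63 FPKM (limma adjusted p = 0.0651). The matricellular gene Ccn1 read 212 ± 101 and 53.5 ± 16.7 FPKM (limma adjusted p = 0.0797). Several of these genes are also expressed by fibroblasts, whose markers are given above, and the part of that shift was not tested. Mmp7, a secreted protease used as a Wnt readout in kidney disease, was spread too widely to compare, at 51.87, 201.87 and 63.85 FPKM against 8.08, 21.69 and 89.43 FPKM (limma log2 fold change -1.74, SE 0.867, adjusted p = 0.257).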

How the data were processed

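The deposited values are FPKM for each gene and library, as the authors computed them, per the file headers. The submitters' processing notes name the build mm9. The aligner, counting tool, annotation, strand use and filters were not given in the sources used here. RNA was extracted with TRIzol and sequenced from Illumina libraries, per the labels' protocols. Groups and replicate numbers come from the sample titles, and no pair of libraries held identical values. FPKM is relative to each library, so abundant genes can move the rest.

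The 13390 genes reaching 1 FPKM in 3 or more of the 6 libraries were put on the log2(FPKM + 1) scale. A limma model (version 3.58.1, R 4.3.3) with a trend of variance on level and no term besides group tested knockout against floxed, two-sided, and Benjamini-Hochberg adjustment ran over all of these genes at 0.05. The script was tested on simulated data. Depth was estimated from the spacing of low values of genes with a single GENCODE transcript, as the best of a grid of depths. At the depth chosen 64.4% to 67.8% of values lay within 0.2 of whole fragments. The median share over all depths tried was 37.3% to 40.1%. Promoters are RefSeq sequences of GRCm38.p6, another build than mm9, and were matched by symbol. No protein sequences were used here.

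The members and gene lists were chosen with earlier results of these data known. Named are Abl1, Ctnnb1, Nkd1, Nkd2, Axin2, Fzd2 and Ccn4. In each role group the 3 members with the smallest p and the one with the highest mean are named, then the 5 higher members with the smallest p, and the 3 other pathway genes with the smallest p per list. One gene that this rule names is not reported here. Mmp7, Sox9, Sostdc1 and the marker Kap were named after their values were seen. The remaining members are given more briefly. Alternatives were another pseudocount (0.1), no filter, 2 scalings, limma without its trend, a replicate block, and each library left out in turn. Python 3.11.15 with pandas 2.3.3, numpy 2.4.6 and matplotlib 3.10.9 did the rest.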

Additional observations from a re-analysis of the deposited data

How the results depend on the processing

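With each library left out in turn, the members past the limma adjusted threshold numbered 0 to 13 lower and 0 to 2 higher, the counts above 0 coming without knockout replicate 3. Members at an unadjusted p under 0.05 numbered 8 to 25 lower and 2 to 3 higher, and the other pathway genes 12 to 38 lower and 1 to 4 higher. The matching shares over all tested genes at that p were not computed, so these counts describe the lists only. The counts of 25 and 38 came without knockout replicate 3. Without that library 15.4% of all tested genes passed the limma adjusted threshold as lower, beside 0.0373% with all libraries. The member median ran from -0.35 to -0.17. The lowest count of lower members, 8, came without knockout replicate 2, and the count was 10 without floxed replicate 3 and without knockout replicate 1. Median-ratio scaling moved the median of all tested genes from -0.12 to 0.0012 and gave 13 lower and 4 higher members, and 15 lower and 5 higher other pathway genes. No alternative apart from leaving out knockout replicate 3 brought a named gene past the adjusted threshold. With that library left out, 23 of the 48 named genes passed, against 15.4% of all tested genes lower and 9.02% higher; most named genes were picked by small p, so these shares are not comparable. The adjusted p of Nkd1 ranged from 0.00349 to 0.213 and that of Nkd2 from 0.00456 to 0.213 over 12 alternatives. Among the named genes, Gsk3a, Znrf3, Rnf43, Porcn, Wls and Tcf7l2, all near 0, changed sign in at least 1 alternative. Of the other members, Lrp5, Apc and Dvl1 changed sign with median-ratio scaling, to 0.06, 0.02 and 0.03.

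With the replicate number as a replicate block, 15 members were lower and 2 higher at an unadjusted p under 0.05, and none passed the adjusted threshold. The shares over all tested genes with that block were not computed. The sample titles do not say whether equal numbers mark paired libraries. Deviations of same-numbered libraries from their group means correlated across genes at -0.126, -0.07 and 0.034. Libraries with different numbers gave -0.122 to 0.135. With 3 libraries per group such values cannot decide whether the libraries were paired. Of the 22 untested members, 3 were lower and 1 higher without overlap, and these differences have no test. The matching shares over all untested genes were not computed.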
